A study of Homo sapiens with 9 samples.

Results

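The genes described here are 10 genes of prostaglandin metabolism and signalling: PTGS1, PTGS2, PTGES, PTGES2, PTGES3, PTGR1, PTGR2, HPGD, PTGER2 and PTGER4. They were picked by gene symbol while the group differences of this series were already known, and no measured threshold entered the choice. All 10 were on the array, through 21 probe sets that carry exactly 1 gene, out of 19775 genes measured that way. The adjusted p values given for them therefore describe each difference against the spread of the arrays and are not independent evidence.

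The cells were A549, an established human lung adenocarcinoma line in which NRF2 (gene NFE2L2), which switches on antioxidant genes, is known to be constitutively active because its inhibitor KEAP1 is mutated. Cultures in high-glucose medium with serum received a cationic lipid transfection reagent alone (mock), that reagent with 25 nM non-targeting siRNA (NS siRNA), or with 25 nM siRNA against NRF2 (Nrf2 siRNA), and were harvested 96 h later. Each group held 3 biological replicates, 1 array each. All 9 arrays come from 1 cell line, and only 1 Nrf2 siRNA group without a rescue was analysed here, so an effect of losing NRF2 and an off-target effect of that siRNA cannot be told apart.

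Prostaglandins are made from arachidonic acid, which phospholipases cut out of membranes. The cyclooxygenases PTGS1 (COX-1, in many tissues always on) and PTGS2 (COX-2, induced by growth factors and inflammation) turn it into prostaglandin H2, and prostaglandin E synthases make prostaglandin E2 (PGE2) from that. PGE2 signals through G-protein-coupled receptors; EP2 and EP4 (genes PTGER2 and PTGER4) raise cyclic AMP. HPGD oxidises PGE2 to a keto form that hardly binds these receptors, and the reductases PTGR1 and PTGR2 then reduce a double bond of the keto product. In lung adenocarcinoma COX-2 and PGE2 are known for supporting growth.

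The siRNA target was checked first. NFE2L2 had a log2 level of 10.25 ± 0.11 (SD, n = 3) after Nrf2 siRNA, beside 12.09 ± 0.06 after NS siRNA and 11.99 ± 0.08 after mock treatment, which left 27.9% of the NS siRNA level and 30.0% of the mock level by its brightest probe set. A dimmer one left 45.2% and 50.2%, and the third, at 92.9% and 95.4%, did not pass. Values are log2 expression levels from RMA, a method that corrects background and brings arrays to a common scale; they have no test against background, and levels of different probe sets are not comparable. Array medians lay between 7.51 and 7.57, and the median SD between replicates was 0.0732. All 6 epithelial markers lay above the array medians on every array. Of 10 markers of leukocytes, endothelium and fibroblasts 8 were measured, of which 3 lay below the medians on every array and 4 above on every array. Among those 8 only CDH5 passed a test, at 0.23 (log2) higher in Nrf2 siRNA than in mock (adjusted p = 0.0381). The epithelial markers KRT19, EPCAM and CDH1 were higher in Nrf2 siRNA than in mock by 1.95, 1.20 and 0.94 and than in NS siRNA by 1.15, 0.48 and 0.48. They were also higher in NS siRNA than in mock, by 0.80, 0.72 and 0.46. Of the other 3, KRT7 was lower in Nrf2 siRNA (-0.17 against NS siRNA, -0.21 against mock), KRT8 was higher against mock only (0.21; 0.06 against NS siRNA did not pass) and KRT18 passed against neither (0.05 and 0.11). The part of these markers in the differences below was not tested. An array of a whole culture cannot tell less RNA per cell from fewer cells that make it.

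Because the siRNA lowers a DNA-binding factor, the promoters of the 10 genes were searched for the core of its binding motif, the antioxidant response element. The sequence searched was TGACNNNGC on both strands, in windows from 250 bases before to 50 bases after start sites in RefSeq (GRCh38.p14). The TGAC start is shared with AP-1 and CRE motifs. The 10 genes had 15 such windows. Matches lay in 4 of them, belonging to 3 genes, PTGS1, PTGES2 and PTGES3. Among all promoter windows 13.3% of 35116 windows held a match, and 16.1% of 27305 genes had a match in any of their windows. The lines show the match upstream of the outermost start site of each of these 3 genes, in capitals, with up to 20 bases either side and read 5′ to 3′ along the gene. They are shown because only these members have such letters in the windows searched. The PTGES3 match is on the opposite strand, and the second PTGES2 match, at another start site, is not shown. No window of PTGR1, PTGS2, PTGES, HPGD, PTGR2, PTGER2 or PTGER4 held these letters, which says nothing about sites outside the windows. The only PTGR1 window was not at the outermost start site of that gene, so that start was not searched.
PTGS1, chr9:122370356-122370404, plus strand, match 157 bases before the start: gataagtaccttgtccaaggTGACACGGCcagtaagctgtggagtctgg
PTGES2, chr9:128128595-128128643, minus strand, match 183 bases before the start: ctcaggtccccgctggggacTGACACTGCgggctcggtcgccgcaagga
PTGES3, chr12:56688285-56688329, minus strand, match 25 bases before the start: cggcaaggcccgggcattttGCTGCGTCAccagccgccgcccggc

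The comparison of Nrf2 siRNA with NS siRNA asked which of these transcripts differ once the NRF2 transcript is lowered, with transfected siRNA present on both sides. PTGR1 stood at 17.5% of its NS siRNA level. The inducible cyclooxygenase PTGS2 stood 2.88-fold higher and the PGE2-oxidising enzyme HPGD 2.40-fold higher, while the inducible synthase PTGES stood 1.58-fold lower. By the brightest probe set of each gene, 2 of the 10 were higher and 5 lower at an adjusted p below 0.05, where 20.4% of all genes were higher and 24.7% lower. Against mock 2 were higher and 4 lower, where 15.6% and 15.5% of all genes were, and for NS siRNA against mock 2 were higher and 1 lower, where 14.1% and 14.3% were. The comparisons share arrays and the genes were picked with these results known, so nothing is read from these counts. The median difference of the 10 genes was -0.17 (log2) against NS siRNA and -0.07 against mock, beside -0.05 and -0.02 over all genes.

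**Figure D1:**
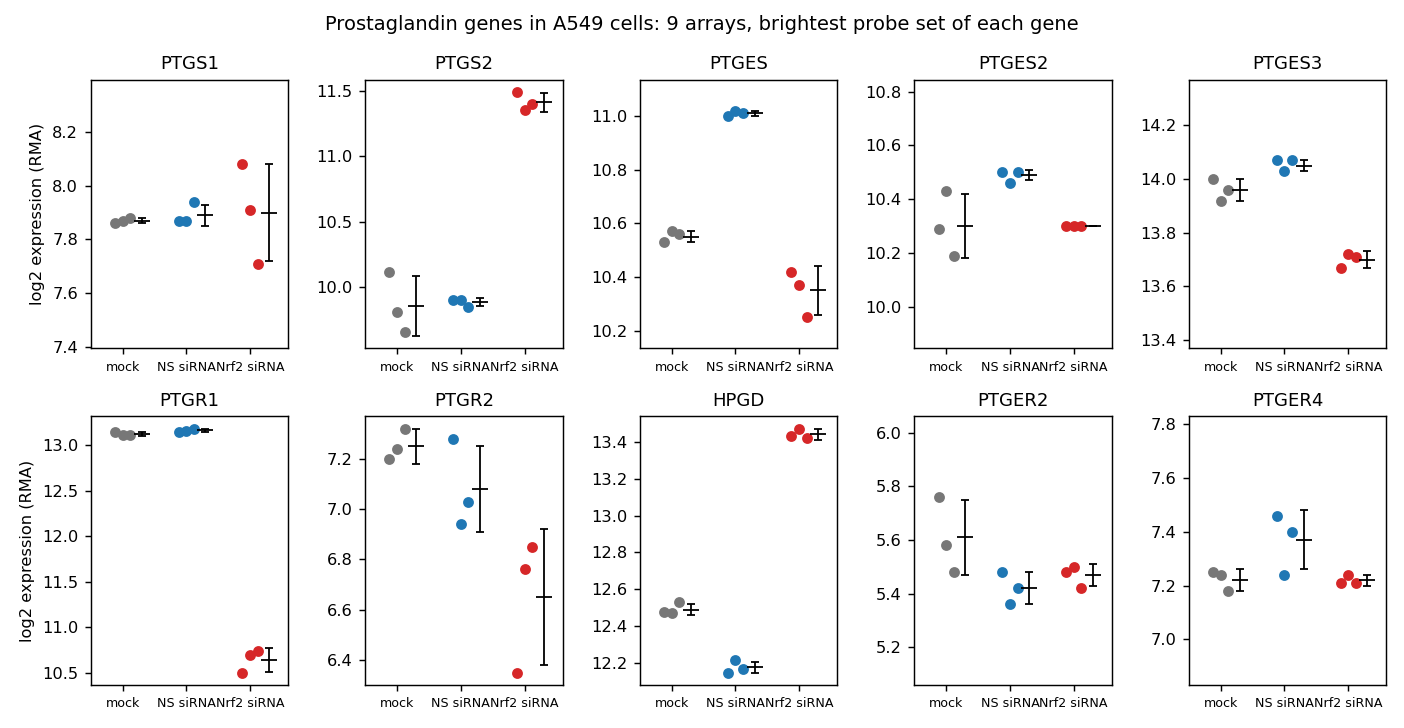
Log2 expression (RMA, vertical axis, its own range in each panel) of the 10 genes on each of 9 arrays, by the brightest probe set; dots are arrays, and the bar beside them is the mean ± SD of 3 arrays. The 3 Nrf2 siRNA arrays lie far below all 6 control arrays for PTGR1 (10.50 to 10.74) and far above them for PTGS2 and HPGD, while PTGES separates all 3 groups.

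The cyclooxygenases came apart. PTGS2 read 10.12, 9.81 and 9.66 (log2) in mock and 9.90, 9.90 and 9.85 in NS siRNA. On the Nrf2 siRNA arrays it read 11.49, 11.35 and 11.40. Every Nrf2 siRNA array was above every control array, and the mock arrays were the most scattered, with an SD of 0.23. The difference was 1.53 ± 0.09 (SE, log2) against NS siRNA (adjusted p = 3.27e-08) and 1.55 ± 0.09 against mock (adjusted p = 6.12e-08). The 2 controls differed by 0.02 only (95% interval -0.17 to 0.22; adjusted p = 0.884). The other PTGS2 probe set gave 1.51 ± 0.10 and 1.54 ± 0.10. By size, PTGS2 ranked 183 of 19775 genes against NS siRNA and 98 against mock.

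PTGS1, the constitutive cyclooxygenase, did not pass a test by any of its 4 probe sets in any of the 3 comparisons. Its brightest probe set read 7.86, 7.87 and 7.88 in mock, 7.87, 7.87 and 7.94 in NS siRNA and 8.08, 7.91 and 7.71 in Nrf2 siRNA, so the groups overlapped and the Nrf2 siRNA arrays spread most. The difference against NS siRNA was 0.01, with a 95% interval from -0.15 to 0.17 (log2), and that against mock 0.03, from -0.13 to 0.19. Its name ends in x_at, which marks probe sets whose probes may also match other transcripts, and the other 3 lay at 7.43 or lower on average, below the median level of the array.

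The 3 prostaglandin E synthases were lower after Nrf2 siRNA than after NS siRNA, by unequal amounts. PTGES is the microsomal enzyme that is induced together with COX-2. It read 10.53, 10.57 and 10.56 in mock, 11.00, 11.02 and 11.01 in NS siRNA and 10.42, 10.37 and 10.25 in Nrf2 siRNA. No array of one group reached into another. The order was NS siRNA, then mock, then Nrf2 siRNA. The difference was -0.66 ± 0.05 (SE) against NS siRNA (adjusted p = 3.49e-07) but -0.21 ± 0.05 against mock (adjusted p = 0.00803), since NS siRNA itself lay 0.46 ± 0.05 above mock (adjusted p = 2.47e-05). Its other probe set gave -0.64, -0.27 and 0.37 for the same 3 comparisons, all past the threshold.

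PTGES3 is a cytosolic synthase better known as p23, a co-chaperone of HSP90. It read 14.00, 13.92 and 13.96 in mock, 14.07, 14.03 and 14.07 in NS siRNA and 13.67, 13.72 and 13.71 in Nrf2 siRNA. The Nrf2 siRNA arrays were below all controls, with a difference of -0.35 ± 0.04 against NS siRNA (adjusted p = 3.05e-05) and of -0.26 ± 0.04 against mock (adjusted p = 0.000678).

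PTGES2, the second membrane-associated synthase, read 10.30 on each of the 3 Nrf2 siRNA arrays, 10.50, 10.46 and 10.50 in NS siRNA, and 10.29, 10.43 and 10.19 in mock. Its difference against NS siRNA was -0.19 ± 0.06 (adjusted p = 0.0206), and without NS siRNA replicate 1 or 3 it no longer passed (adjusted p = 0.0541 and 0.0578). Against mock it was -0.01 (95% interval -0.13 to 0.12; adjusted p = 0.96). The NS siRNA arrays stood apart from both other groups and were 0.18 ± 0.06 above mock (adjusted p = 0.036), a difference that failed to pass in 7 of 17 alternative settings: with equal array medians (0.0834), in the fit of 2 groups (0.0601), without mock replicate 1 (0.0998) or 3 (0.146) and without NS siRNA replicate 1 (0.0896), 2 (0.0638) or 3 (0.0929).

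**Figure D2:**
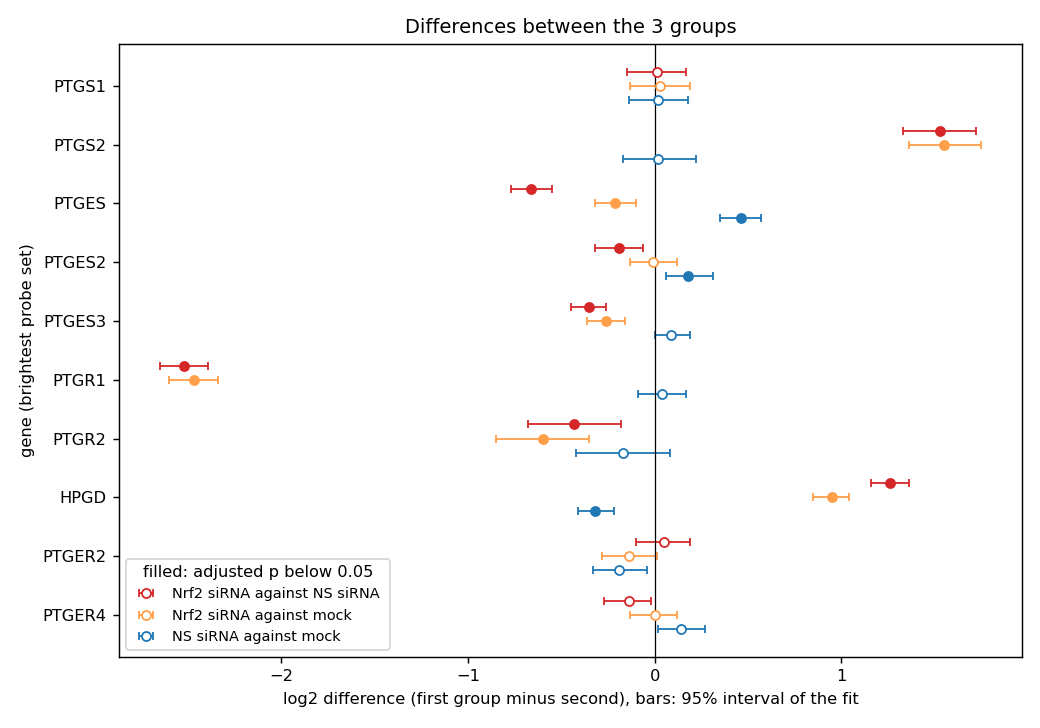
Log2 difference of each of the 10 genes (horizontal axis, first group minus second, brightest probe set) for the 3 comparisons, with 95% intervals from the fit; filled points have an adjusted p below 0.05. PTGR1 lies at -2.52 and -2.47 for the Nrf2 siRNA comparisons and near 0 between the controls, while for PTGES and HPGD the controls differ from each other as well.

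HPGD, the dehydrogenase that starts PGE2 breakdown, was higher after Nrf2 siRNA by all 4 of its probe sets and against both controls. Its brightest probe set, 211548_s_at, read 12.48, 12.47 and 12.53 in mock, 12.15, 12.22 and 12.17 in NS siRNA and 13.43, 13.47 and 13.42 in Nrf2 siRNA. The groups did not overlap, and NS siRNA was the lowest. The difference was 1.26 ± 0.04 (SE) against NS siRNA (adjusted p = 3.71e-10) and 0.95 ± 0.04 against mock (adjusted p = 9.34e-09). Over the 4 probe sets it ran from 0.60 to 1.26 against NS siRNA and from 0.80 to 1.13 against mock.

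The probe sets of HPGD did not give the same order to the 2 controls. NS siRNA was lower than mock by 211548_s_at and 203914_x_at, each with a difference of -0.32 ± 0.04 (adjusted p = 0.000182 and 0.000127). It was higher by 203913_s_at, at 0.20 ± 0.06 (adjusted p = 0.0216), and by 211549_s_at at 0.14 ± 0.05, which did not pass (adjusted p = 0.0567) but did in 6 alternative settings, among them quantile normalization (0.18, adjusted p = 0.00863) and without Nrf2 siRNA replicate 2 (0.0326) or 3 (0.0464). The arrays of the 2 groups did not overlap in any of the 4. The call of 203913_s_at was lost when any of the 6 control arrays was left out (adjusted p from 0.0539 to 0.0594) and with equal array medians (0.0533). With the mean of all 4 probe sets the difference between the controls was -0.07 (adjusted p = 0.137). Which stretch of the transcript each probe set reads was not analysed here.

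**Figure D3:**
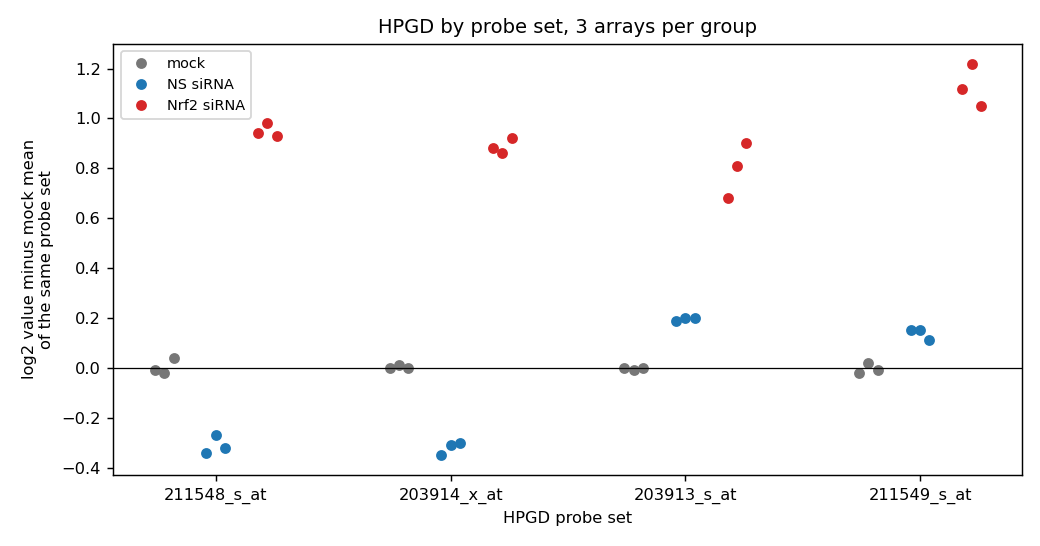
Each dot is 1 array: its log2 value for an HPGD probe set minus the mock mean of that probe set (vertical axis), with 3 arrays per group side by side for the 4 probe sets (horizontal axis). The Nrf2 siRNA arrays lie above both controls in all 4, while the NS siRNA arrays lie below mock in the first pair of probe sets and above it in the second.

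The reductases differed in the size of their change. PTGR1, also known as leukotriene B4 hydroxydehydrogenase, reduces the double bond of keto-prostaglandins and of reactive aldehydes. By its brightest probe set it read 13.14, 13.11 and 13.11 in mock, 13.14, 13.15 and 13.18 in NS siRNA and 10.50, 10.69 and 10.74 in Nrf2 siRNA. The controls were within 0.04 of each other on average (95% interval -0.09 to 0.17; adjusted p = 0.663), and the Nrf2 siRNA arrays were far below both. The difference was -2.52 ± 0.06 (SE) against NS siRNA (adjusted p = 2.31e-11) and -2.47 ± 0.06 against mock (adjusted p = 4.45e-11). The other 2 probe sets gave -2.67 and -2.72 against NS siRNA and -2.61 and -2.57 against mock, so 15.2% to 18.0% of the control level was left over all of them. PTGR1 ranked 25 of 19775 genes by size against NS siRNA and 15 against mock.

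PTGR2, the second reductase of keto-prostaglandins, had 1 probe set of its own, a dim one below the array medians; 2 brighter ones carry another gene too and were left out; they averaged 10.84 and 11.75 in mock, 10.83 and 11.65 in NS siRNA, and 10.77 and 11.64 in Nrf2 siRNA, closer together than the values below. It read 7.20, 7.24 and 7.32 in mock, 7.28, 6.94 and 7.03 in NS siRNA and 6.35, 6.76 and 6.85 in Nrf2 siRNA. The Nrf2 siRNA arrays were the lowest but scattered, with 1 array well below the other two. The difference was -0.43 ± 0.12 against NS siRNA (adjusted p = 0.00921) and -0.60 ± 0.12 against mock (adjusted p = 0.00156). Without Nrf2 siRNA replicate 1, the lowest array, they were -0.28 and -0.45, and both still passed.

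In the comparisons as fitted, neither receptor passed a test by its brightest probe set. PTGER2 (EP2) read 5.76, 5.58 and 5.48 in mock, 5.48, 5.36 and 5.42 in NS siRNA and 5.48, 5.50 and 5.42 in Nrf2 siRNA, all well under the array medians. Its difference was 0.05 against NS siRNA (95% interval -0.10 to 0.19) and -0.14 against mock (-0.28 to 0.01), and the latter passed without mock replicate 3 (-0.20, adjusted p = 0.0467). PTGER4 (EP4) read 7.25, 7.24 and 7.18 in mock, 7.46, 7.24 and 7.40 in NS siRNA and 7.21, 7.24 and 7.21 in Nrf2 siRNA. That probe set gave -0.14 ± 0.06 against NS siRNA (adjusted p = 0.0625), which passed in the gene-level fit on the brightest probe sets (adjusted p = 0.0493) and without NS siRNA replicate 2 (-0.21, adjusted p = 0.0092), and 0.00 against mock (adjusted p = 0.988).

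The dimmer PTGER4 probe set, 204897_at, went the other way. It averaged 6.08 in mock, and read 6.37, 6.17 and 6.01 in NS siRNA and 6.43, 6.70 and 6.23 in Nrf2 siRNA. Its difference of 0.27 ± 0.11 against NS siRNA did not pass (adjusted p = 0.0612). It did pass with eBayes trend and robust variances (adjusted p = 0.0442), with the replicate number as a block (adjusted p = 0.0229), and without replicate 1 of NS siRNA (0.37, adjusted p = 0.0206) or Nrf2 siRNA replicate 3 (0.38, adjusted p = 0.0121). The difference of 0.37 ± 0.11 against mock passed (adjusted p = 0.0208), but not without mock replicate 3 (0.33, adjusted p = 0.0788) or Nrf2 siRNA replicate 2 (0.25, adjusted p = 0.0885). The direction for this receptor therefore depends on the probe set.

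Around the 10 genes, 59 further genes of the pathway were listed by function, of which 52 were measured. Against NS siRNA 11 of them were higher and 13 lower, and against mock 9 and 7, with the shares over all genes as given above. Their median difference was -0.05 against NS siRNA and -0.03 against mock. The largest change among phospholipases A2, the enzymes that free arachidonic acid, was that of PLA2G4A, the cytosolic phospholipase that works with COX-2. PLA2G4A read 11.29, 11.25 and 11.21 in mock, 10.16, 10.11 and 10.22 in NS siRNA and 11.68, 11.76 and 11.75 in Nrf2 siRNA. It was 1.57 ± 0.05 (SE) higher than in NS siRNA (adjusted p = 1.38e-10) but 0.48 ± 0.05 higher than in mock (adjusted p = 8.90e-06), and NS siRNA differed from mock by -1.09 (adjusted p = 1.34e-08). PLA2G12A, a secreted phospholipase, fell by 0.32 against NS siRNA and by 0.33 against mock by its brightest probe set. With the mean of its 4 probe sets the difference against mock was -0.69, and NS siRNA then differed from mock by -0.30 (adjusted p = 0.000895). Of 7 measured, 1 rose and 2 fell against NS siRNA and 2 rose and 1 fell against mock. The 2 falls were 1 when any of the 3 NS siRNA arrays or Nrf2 siRNA replicate 2 was left out. They were also 1 with equal array medians and in the fit of 2 groups.

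Of 9 measured further synthases and reductases 4 fell and 1 rose against NS siRNA, and 3 fell and 1 rose against mock. Over all genes 24.7% were lower and 20.4% higher against NS siRNA, and 15.5% and 15.6% against mock. Against NS siRNA 3 fell with equal array medians and with eBayes trend and robust variances. The same held when any single NS siRNA array or Nrf2 siRNA replicate 2 was left out. With the mean of each gene's probe sets 5 fell. The carbonyl reductase CBR1 converts PGE2 to prostaglandin F2 alpha and reduces many other carbonyls. CBR3 is also a carbonyl reductase. CBR1 fell from 11.40 ± 0.03 (SD, n = 3) in NS siRNA and 11.63 ± 0.07 in mock to 10.45 ± 0.04, and CBR3 from 9.39 ± 0.04 and 9.21 ± 0.04 to 8.04 ± 0.06. AKR1C3, a prostaglandin F synthase, fell by 0.73 and 0.81, but its family is so alike in sequence that its probe set may read relatives. PRXL2B, also a prostaglandin F synthase, was at 9.32 ± 0.15 after Nrf2 siRNA, 8.51 ± 0.04 after NS siRNA and 9.08 ± 0.07 in mock. Its rise was 0.82 ± 0.07 against NS siRNA (adjusted p = 7.72e-07) and 0.24 ± 0.07 against mock (adjusted p = 0.0171). The latter, the 1 rise counted against mock, was lost without mock replicate 1 (0.0654) or 3 (0.0612) or Nrf2 siRNA replicate 2 (0.0532) or 3 (0.0746).

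**Figure D4:**
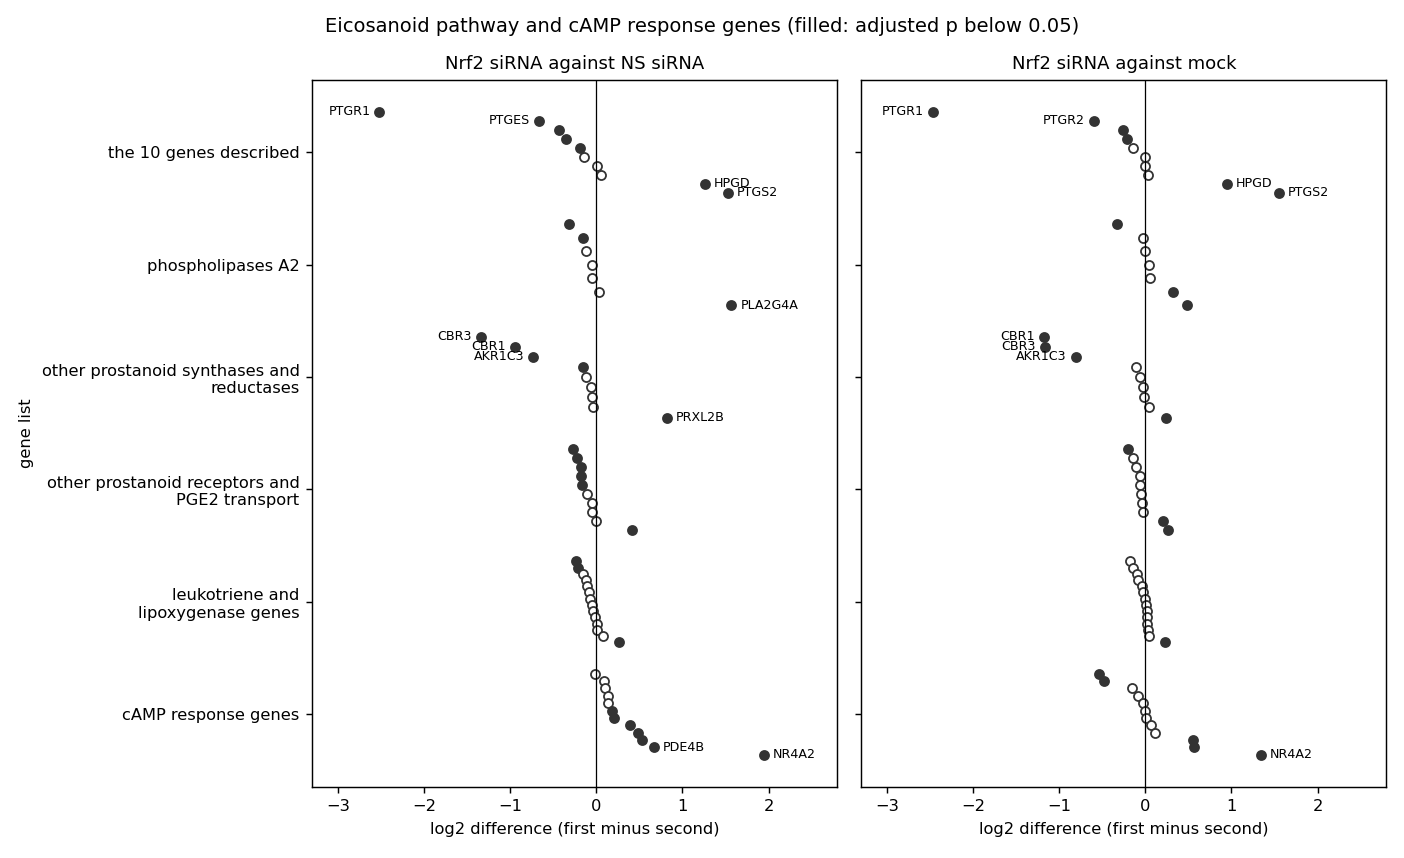
Log2 differences (horizontal axis) of the 10 genes and of 52 further genes in 5 lists (vertical axis, 1 dot per gene, brightest probe set) for Nrf2 siRNA against NS siRNA and against mock; filled dots have an adjusted p below 0.05, and those changed by 0.6 or more are named. Most dots cluster near 0, and PLA2G4A lies at 1.57 against NS siRNA but at 0.48 against mock.

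For the next 2 lists, the shares over all genes were 24.7% lower and 20.4% higher against NS siRNA, and 15.5% and 15.6% against mock. Of 10 measured other receptors and transporters of prostanoids 5 were lower and 1 higher against NS siRNA, with a list median of -0.14 (-0.06 against mock). Only 3 were lower when NS siRNA replicate 2 or 3 or Nrf2 siRNA replicate 2 or 3 was left out. Against mock 1 was lower and 2 higher, and 0 lower without any 1 of the mock arrays or without Nrf2 siRNA replicate 1 or 2. Of 14 leukotriene and lipoxygenase genes 2 were lower and 1 higher against NS siRNA, with 1 lower once replicate 2 of NS siRNA or replicate 3 of Nrf2 siRNA was dropped. The count also moved up. It was 3 with the filter on dim probe sets, the gene-level fit on the brightest probe set, the replicate block and without NS siRNA replicate 1. With the mean of each gene's probe sets it was 4. Against mock 1 was higher and 0 lower by limma (2 lower at an unadjusted p below 0.05, and 1 lower without mock replicate 1 or 3). The same arrays gave 1 lower with quantile normalization or the replicate block, and 2 lower with the filter on dim probe sets and in both gene-level fits. The list median was 0.01.

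EP2 and EP4 act through cyclic AMP, so a list was added under the heading of genes known to respond to it. That list also holds the signalling components PRKACA, PRKAR1A and CREB1 and the factor CREB3L1. Of 12 measured 7 were higher and 0 lower against NS siRNA (8 and 0 at an unadjusted p below 0.05). Over all genes 20.4% were higher and 24.7% lower. All 12 lay above the median level of the array. With the filter above that level, 3865 of 13139 genes were higher and 4305 lower against NS siRNA, a larger share than over all genes. The 7 include PRKAR1A and CREB3L1, which stood under the same heading as the other genes. The list median was 0.19 beside -0.05 over all genes. Against mock 3 were higher and 2 lower, where 15.6% and 15.5% of all genes were, with a list median of 0.00. Between the controls 0 were higher and 6 lower in NS siRNA (0 and 8 unadjusted), so NS siRNA itself was below mock for those 6. Over all genes 14.1% were higher and 14.3% lower between the controls. NR4A2, an orphan nuclear receptor and immediate-early gene, was at 9.86 ± 0.10 after Nrf2 siRNA, 7.91 ± 0.04 after NS siRNA and 8.52 ± 0.05 in mock, with differences of 1.95 ± 0.06 (SE) and 1.34 ± 0.06 (adjusted p = 8.63e-11 and 3.98e-09). PDE4B, a phosphodiesterase that breaks down cyclic AMP, rose by 0.67 and 0.56. CREB3L1, which sits in the endoplasmic reticulum membrane until cleaved, rose by 0.53 and 0.55. CREM, which encodes cyclic AMP-responsive activators and repressors, was between the controls, 0.39 above NS siRNA and 0.54 below mock (differences 0.39 and -0.54, both past the threshold); 4 of its 6 probe sets had that sign against NS siRNA and all 6 against mock.

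The genes whose profiles over the 9 arrays were closest to that of PTGR1 were TRIM16, HMOX1, NMRAL2P, GCLM and ALDH3A1. Closeness was the root mean square difference of mean-centred log2 values, which ran from 0.08 to 0.18 for these 5, beside 1.18 for the size of the PTGR1 profile itself. HMOX1, heme oxygenase, and GCLM, a glutamate-cysteine ligase subunit, are well-known NRF2 targets. For PTGS2 the closest were TPPP3, CNTN1, PDE8B, CEACAM1 and C4BPA, at 0.10 to 0.12 beside a profile size of 0.74. Their differences against NS siRNA ran from 1.38 to 1.64 and against mock from 1.52 to 1.74. Closeness was computed from the same values that gave PTGR1 and PTGS2 their differences, so these lists are not independent of them. They are descriptions of likeness over 3 groups of 3 arrays, without a test.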

How the data were processed

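The values deposited by the authors are on a log2 scale and come from RMA according to the submitters' processing notes, which name no version. Per the labels' protocols, biotinylated cRNA was made from RNeasy-cleaned TRIZOL extracts. Of 54675 probe sets, 62 controls were left out. Of the rest 41091 had exactly 1 gene in the array annotation, 1801 several and 11721 none. Symbols were updated through Entrez identifiers with RefSeq (GRCh38.p14), which matched 41037 of 41091. Some genes are not reported here.

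All 41091 probe sets were fitted together with limma 3.58.1 in R 4.3.3 (lmFit, eBayes, 3 group means, 9 arrays, 6 residual degrees of freedom), two-sided, adjusted by Benjamini-Hochberg over all of them, with a threshold of 0.05. Where genes are counted, the probe set with the highest mean over the 9 arrays stands for a gene. SDs are over 3 arrays, SEs and 95% intervals come from the fit, and folds are 2 to the power of a log2 difference. The fit was tested on simulated data. What the labels call biological replicates sets the spread behind each p value. Scan dates and detection calls were not used here, so no batch could be examined.

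The 10 genes and the gene lists were chosen with earlier results of these data known. The text names the 10 genes, NFE2L2, the 4 largest rises and falls of the pathway lists pooled in each Nrf2 siRNA comparison, and the 5 nearest profiles; cell markers come from a fixed list. The 7 listed pathway genes without a single-gene probe set and 2 markers were not analysed here. Alternatives were equal array medians, quantile normalization, a filter above the median level, a gene-level fit on each gene's brightest probe set or on their mean, eBayes with trend and robust variances, a fit of 2 groups, the replicate number as a block, and each array left out. Plots used matplotlib 3.10.9 (Python 3.11.15).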

Additional observations from a re-analysis of the deposited data

How the results depend on the processing

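Against NS siRNA and against mock, PTGR1, PTGES, PTGES3, PTGR2, PTGS2 and HPGD kept their direction and their side of the threshold in every alternative run (17 for each, 16 for PTGR2, which the filter on dim probe sets removed). PTGR1 ranged from -2.64 to -2.44 against NS siRNA and from -2.55 to -2.40 against mock, PTGS2 from 1.49 to 1.56 and 1.45 to 1.68, and HPGD from 1.02 to 1.28 and 0.93 to 0.98. With 1 array left out, 3696 to 4026 of all 19775 genes were higher and 4049 to 4836 lower against NS siRNA. Against mock 2644 to 3053 were higher and 2548 to 2999 lower. Of the members 2 were then higher and 4 to 6 lower against NS siRNA, and 2 higher and 4 to 5 lower against mock. Between the controls the counts were less stable: in NS siRNA 1 member was above mock with equal array medians and in the fit of 2 groups, and 2 were lower with equal array medians, quantile normalization, the gene-level fit on the brightest probe set and the replicate block, where PTGER2 passed (adjusted p from 0.0374 to 0.0479). With eBayes trend and robust variances 3 were higher, as PTGES3 passed too (0.09, adjusted p = 0.011), and with the mean of each gene's probe sets PTGER2 passed (0.043) in place of HPGD (0.137). With 1 array left out these counts ran from 1 to 2 higher and 1 to 2 lower. Over all genes the counts then ran from 2165 to 2865 higher and from 2327 to 2872 lower. With eBayes trend and robust variances 3039 of all genes were higher. The cause of these shifts was not tested. Whether replicate numbers pair the arrays was not settled. Deviations of same-numbered arrays correlated at -0.19 to 0.19, and those of differently numbered arrays at -0.31 to 0.16. In the fit with the replicate number as a block 3140 genes were higher and 3162 lower against mock. Without the block these counts were 3087 and 3057. PTGER2, PTGER4, PTGR2 and 3 of 4 PTGS1 probe sets are too dim for a change to be bounded well. The brightest PTGS1 probe set lies above the array medians, but so do 4 of 8 measured markers of other cell types on every array. Without a test against background, that level does not show that a PTGS1 change is bounded well either.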
